A study of Sus scrofa with 599 samples.

Results

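The HOXA cluster is a run of homeobox genes on chromosome 18 of the pig genome. The genes described here were taken by name, as the 9 genes HOXA2, HOXA3, HOXA4, HOXA5, HOXA6, HOXA7, HOXA9, HOXA10 and HOXA11. Of these 9, 7 had an Ensembl identifier that paired with the symbol and a row among the 21280 protein-coding genes (PCGs) of the expression tables. HOXA4 and HOXA6 had none, so they have no expression value here and are described only through chromatin.

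HOX genes encode transcription factors that give cells a position along the body axis. Genes with low numbers (anterior, or 3′, genes) are used towards the head, and genes with high numbers (posterior, or 5′, genes) towards the tail. The proteins bind DNA together with cofactors of the PBX and MEIS families, and in vertebrate tissues inactive stretches of the cluster are held by Polycomb proteins. Fat cells and their progenitors keep HOX patterns that differ between adipose depots, and HOXA5 is among the HOX genes known to act in adipocyte differentiation.

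The tissue was taken from adult female pigs of the Bama miniature breed, about 2 years old at the start. There were 3 diets: a normal diet for NC pigs, while WG pigs gained weight on a high-fat diet during 22 weeks, and WL pigs were taken from pigs fed that high-fat diet and then given 10% of normal caloric intake during 12 weeks, so all WL pigs had also been through the weight gain. There were 4 depots. The visceral ones were GOM, from the greater omentum, MAD, from the mesentery, and RAD, from behind the peritoneum, and the subcutaneous one was ULB, the upper layer of the backfat. RNA-seq gave 236 libraries in 12 groups of diet and depot. NC had 9 libraries of GOM, 12 of MAD, 12 of RAD and 5 of ULB. WG had 45, 36, 39 and 38 in the same order, and WL had 10 in each depot. Hi-C, which maps contacts within the genome, gave 240 samples, with 9, 12, 12 and 5 in NC, 46, 37, 40 and 39 in WG, and 10 in each WL depot. H3K27ac, a histone mark of active promoters and enhancers, came as 18 tables of pooled reads with no replicates. The depots were dissected from the same carcasses, but the labels do not say which samples came from 1 pig, so p-values measure the spread between samples. RNA-seq was of whole tissue, in which fewer cells of a type and less RNA per cell cannot be told apart. For Hi-C, the fixed tissue was spun and the upper layer, which held the adipocytes, was used. Hi-C and RNA-seq thus need not reflect the same cells.

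Estimated counts on PCGs ran from 3337098 to 22939420 per library (median 16791659), and in 40 of the 236 libraries under 88% of the summed TPM (a transcript level per length, scaled to the same total in each library) was on PCGs. The adipocyte gene ADIPOQ had a mean of 1836 to 5345 TPM in the 4 NC depots. WT1, expressed in mesothelium, had a mean of 76.3 TPM in NC GOM and of 0.860 to 9.16 TPM in the other NC depots. The 4 mesothelial markers with an identifier, of 8 listed, summed to medians of 174, 178 and 273 TPM in GOM of NC, WG and WL, and to 8.37 to 18.5 TPM in the other 9 groups.

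On Sscrofa11.1 the members lie on the plus strand of chromosome 18 and span 84.8 kb, from 45388523 to 45473345. Read from low to high coordinates, the genes are HOXA11 (ENSSSCG00000016698), HOXA10 (ENSSSCG00000021204), HOXA9 (ENSSSCG00000028997), HOXA7 (ENSSSCG00000016701), HOXA3 (ENSSSCG00000016705), HOXA6, HOXA5 (ENSSSCG00000016703), HOXA4 and HOXA2 (ENSSSCG00000016706). HOXA13 lies outside this run beside HOXA11. The annotated HOXA3 is 46262 bases long and overlaps HOXA6, HOXA5 and HOXA4 on the same strand, so how the estimated reads were split among these genes is uncertain.

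Promoter sequences show how unlike these starts are. The 250 bases before the RefSeq start (Sscrofa11.1, plus strand, written 5′ to 3′) are given for 4 genes that the results turn on, with each CG dinucleotide in capitals. HOXA10 and HOXA9 are the neighbours with high expression in RAD, HOXA7 is the next gene, expressed in all depots, and HOXA2 is the gene highest in GOM. The windows are chr18:45393275-45393524 for HOXA10, chr18:45404344-45404593 for HOXA9, chr18:45416887-45417136 for HOXA7 and chr18:45469829-45470078 for HOXA2.
HOXA10: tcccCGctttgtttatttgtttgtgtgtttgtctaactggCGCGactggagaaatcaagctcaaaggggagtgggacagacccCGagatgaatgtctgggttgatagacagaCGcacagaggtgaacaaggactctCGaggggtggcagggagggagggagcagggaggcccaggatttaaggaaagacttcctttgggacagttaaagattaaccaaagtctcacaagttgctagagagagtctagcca
HOXA9: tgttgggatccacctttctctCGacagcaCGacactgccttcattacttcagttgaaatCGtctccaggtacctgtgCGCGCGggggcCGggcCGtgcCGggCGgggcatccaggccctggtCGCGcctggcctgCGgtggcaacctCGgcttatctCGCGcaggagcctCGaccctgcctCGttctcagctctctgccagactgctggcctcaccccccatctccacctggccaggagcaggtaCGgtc
HOXA7: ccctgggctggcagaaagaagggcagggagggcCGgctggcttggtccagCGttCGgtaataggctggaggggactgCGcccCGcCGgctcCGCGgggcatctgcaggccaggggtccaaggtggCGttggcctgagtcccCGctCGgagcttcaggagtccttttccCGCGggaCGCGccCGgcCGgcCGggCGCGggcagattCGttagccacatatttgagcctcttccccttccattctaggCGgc
HOXA2: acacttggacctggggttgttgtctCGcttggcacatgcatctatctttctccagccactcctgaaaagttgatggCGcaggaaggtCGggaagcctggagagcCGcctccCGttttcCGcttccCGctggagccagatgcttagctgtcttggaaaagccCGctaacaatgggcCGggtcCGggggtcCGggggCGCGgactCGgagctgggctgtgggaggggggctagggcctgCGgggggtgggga

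Over 19534 pig promoters of this length the median was 12 CG. HOXA10 had 6, and 70.1% of promoters had as many or more. HOXA9 had 19 (32.6% had as many), HOXA7 had 22 (25.4%) and HOXA2 had 15 (43%). The densest of the 9 was HOXA4, with 41 CG (3.1% had as many). The letters TATAAA, searched on both strands, were found in 9.76% of promoters. Among the 9 genes they were found before HOXA5 (plus strand, 198 bases before the start) and HOXA3 (minus strand, 217 bases before it). The composite PBX-HOX motif TGATTNAT was in 2.01% of promoters and in none of the 9 windows.

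HOXA9 and HOXA10 were high in RAD and low in the other 3 depots, and this held in each diet. HOXA9, a posterior gene also known for its role in blood progenitors, had 15.1 to 35.8 TPM in NC RAD (median 20.6, n = 12). In NC GOM it had 0.173 to 1.26 TPM (median 0.550, n = 9) and in NC MAD 0.429 to 2.79 TPM (median 1.64, n = 12). The 5 NC ULB libraries had 0.389, 0.645, 0.806, 1.77 and 4.71 TPM. All 12 NC RAD libraries thus lay above all 26 libraries of the other NC depots. In WL, the 10 RAD libraries had 10.7 to 22.1 TPM (median 15.1) and the 30 others 0.138 to 6.41 TPM, again without overlap. In WG, RAD had 6.47 to 20.1 TPM (median 12.1, n = 39), and 3 of the 119 other libraries lay above the lowest RAD library.

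HOXA10, which lies next to HOXA9 and is best known for patterning of the reproductive tract and the limb, followed the same order at a lower level. It had 3.71 to 11.9 TPM in NC RAD (median 6.52), against 0 to 0.344 TPM in NC GOM and 0 to 1.74 TPM in NC MAD. The 5 NC ULB libraries had 0.0904, 0.130, 0.188, 0.803 and 1.24 TPM. In WG RAD it had 2.12 to 8.27 TPM (median 4.85). The medians of the other WG depots were 0.104 TPM in GOM, 0.0193 TPM in MAD and 0.0197 TPM in ULB. In WL RAD it had 2.39 to 9.34 TPM (median 5.32), and 1 of the 30 other WL libraries, of ULB at 2.71 TPM, overlapped that range. The counts behind these values are small outside RAD: the median estimated count of HOXA10 was 86.0 in NC RAD and 2.13 to 2.27 in the other NC depots, so its fold changes are less precise than those of HOXA9.

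**Figure D1:**
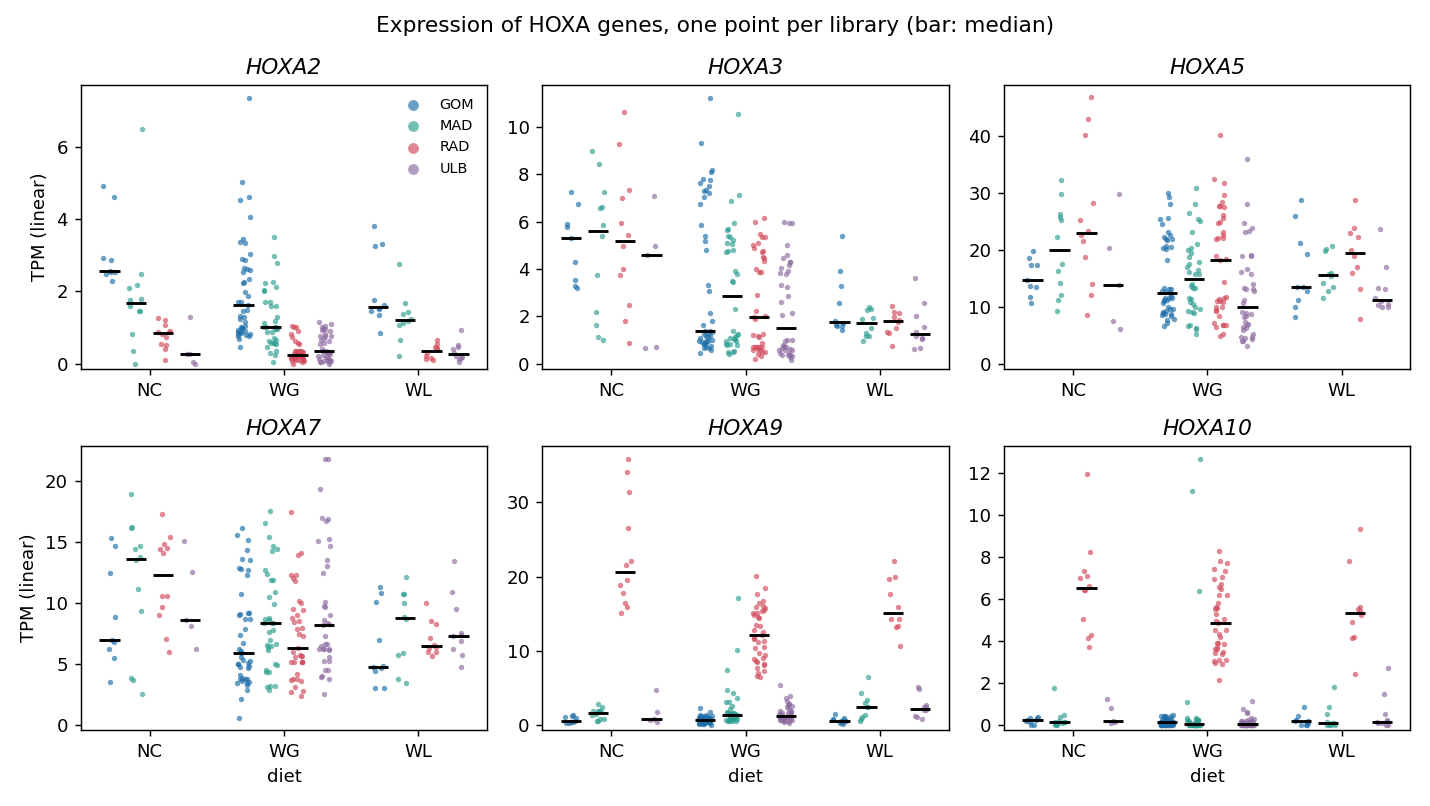
TPM on a linear axis for the 6 HOXA genes that passed the limit on low values, by diet, with a point per library coloured by depot and a bar at the group median. HOXA9 and HOXA10 stand high in RAD in every diet (medians 20.6, 12.1 and 15.1 TPM, and 6.52, 4.85 and 5.32 TPM), 3 WG libraries of MAD also stand high in HOXA10, and HOXA3 of the WG libraries spreads over 2 levels.

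Differences were tested on the counts of all PCGs that exceeded 0.5 TPM in 80% or more of a group's libraries, with edgeR's quasi-likelihood test and Benjamini-Hochberg adjustment. A gene was called at an adjusted p below 0.05 and a fold above 1.5. In NC, HOXA9 was 32.6-fold higher in RAD than in GOM (log2 5.03, standard error 0.398, adjusted p = 5.03e-12), 16.1-fold higher than in MAD and 14.7-fold higher than in ULB. The folds were 18.1, 5.46 and 7.60 in WG, and 27.3, 6.41 and 6.90 in WL. All 9 of these comparisons of HOXA9 were called (edgeR adjusted p from 3.31e-40 to 1.16e-06). For HOXA10 the folds of RAD over GOM, MAD and ULB were 37.0, 24.8 and 15.1 in NC, 36.1, 5.57 and 34.4 in WG, and 29.8, 14.7 and 12.2 in WL. HOXA10 was above the limit on low values in RAD alone, the depot where it was high, so its folds are given as a description and with no test.

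The order of the other depots was less clear. HOXA9 was lowest in GOM. MAD was higher than GOM by log2 1.02 in NC, 1.73 in WG and 2.09 in WL, and ULB was higher than GOM by 1.14, 1.25 and 1.99, all called (edgeR). MAD and ULB did not pass the test in any diet, with differences of ULB from MAD of log2 0.13 ± 0.396 (standard error), -0.48 ± 0.214 and -0.11 ± 0.345. The call of MAD over GOM in NC was lost with a term for the share of TPM on PCGs (0.94). With only libraries of at least 88% of TPM on PCGs, which leaves out 7 of 9 NC GOM libraries, it was lost too (0.99). That limit also ended the calls of MAD over GOM in WL (2.08) and of ULB over GOM in NC (1.13). ULB over GOM in NC was lost as well with the term (1.10) and with no filter on low values (1.16). It also rested on single libraries: without NC ULB replicate 12 the value was 0.37, and neither that fit nor the one without replicate 9 (1.06) passed.

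The 3 WG libraries that overlapped RAD were all of MAD (replicates 27, 39 and 46). They had 7.38, 17.1 and 10.1 TPM of HOXA9, 11.13, 12.6 and 6.38 TPM of HOXA10, and 2.20, 0.438 and 1.03 TPM of HOXA11, where the median WG MAD library had 0 TPM. Other genes with high values in RAD did not all follow. ALX1, a homeobox gene with a median of 4.63 TPM in WG RAD and 0 TPM in WG MAD, was at 0.0409, 0.180 and 0.183 TPM in them. RASSF6, with medians of 4.30 TPM in WG RAD and 0.758 TPM in WG MAD, was at 2.14, 4.92 and 0.468 TPM. HOXC10, with medians of 0.532 and 0 TPM, was at 0.0533, 0.936 and 0.363 TPM. UMOD and SLC12A1, genes of the kidney tubule, were at 178 and 62.6 TPM in replicate 39 and at 7.53 and 2.35 TPM in replicate 46, but at 0.042 and 0.0763 TPM in replicate 27. The kidney and adrenal markers summed to 0 to 10.7 TPM (median 0.087) in the other 33 WG MAD libraries. Their part in the HOXA values was not tested. In RAD itself, these markers summed to medians of 1.08, 0.09 and 0.13 TPM in NC, WG and WL, against 3.77, 0.08 and 0.09 TPM in GOM.

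Without these 3 libraries, an alternative added once their values were known, HOXA9 and HOXA10 in WG were higher in RAD than in MAD by log2 3.04 and 5.41 (2.45 and 2.48 with them). With all libraries, HOXA10 in WG was higher in MAD than in GOM (log2 2.70) and lower in ULB than in MAD (-2.63). Without the 3 libraries both signs turned, to -0.24 and 0.32. HOXA10 entered these fits only through RAD, so its values are a description with no test.

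HOXA11, the most posterior of the 9, was near or at 0 in all depots. Its group medians were 0 to 0.0689 TPM, its highest value was 2.20 TPM, and it passed the limit on low values in none of the 12 groups, so it was not tested.

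HOXA2, the most anterior of the 9 and known from the patterning of the hindbrain and the second branchial arch, ran the other way, highest in GOM, then MAD, and low in RAD and ULB. In NC GOM it had 2.28 to 4.93 TPM (median 2.55), in NC MAD 0 to 6.51 TPM (median 1.68) and in NC RAD 0.0944 to 1.25 TPM (median 0.844). The 5 NC ULB libraries had 0, 0.0497, 0.271, 0.275 and 1.29 TPM. No NC GOM library overlapped the NC RAD or NC ULB libraries. The medians in GOM, MAD, RAD and ULB were 1.63, 1.02, 0.238 and 0.346 TPM in WG, and 1.58, 1.21, 0.344 and 0.253 TPM in WL. The ranges of GOM and RAD did not overlap in WL (0.860 to 3.80 and 0.106 to 0.658 TPM) and did in WG, and those of GOM and ULB overlapped in both.

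HOXA2 was lower in RAD than in GOM by 3.76-fold in NC, 5.39-fold in WG and 5.56-fold in WL. In ULB it was lower than in GOM by 8.04-fold, 3.95-fold and 5.79-fold. Both NC differences were called (edgeR). In WG and WL, HOXA2 passed the limit on low values only in GOM and MAD, where it was high. Its differences of RAD and ULB from those depots in WG and WL are thus a description with no test. HOXA2 was also lower in ULB than in MAD in each diet (log2 -2.30, -1.31 and -1.87), and lower in RAD than in MAD in WG (-1.76) and WL (-1.81). MAD was lower than GOM in WG (-0.67, called), and by -0.71 in NC and -0.66 in WL, which did not pass. The value in NC for RAD against MAD was -1.20 ± 0.488 (standard error), which did not pass (edgeR adjusted p = 0.223). The call of ULB against MAD in NC was lost without any 1 of 4 of the 5 NC ULB libraries (replicates 2, 5, 7 and 12), with values from -2.23 to -1.93. HOXA2 did not pass between RAD and ULB in any diet. With only libraries of at least 88% of TPM on PCGs, which leaves out 7 of 9 NC GOM libraries, RAD against GOM in NC was -2.33 and not called. The mesothelial markers WT1 and KRT8 had their highest mean in the same depot in each diet. KRT18 did not: its mean was 3.75, 10.5 and 20.4 TPM in GOM and 10.2, 15.4 and 35.9 TPM in ULB of NC, WG and WL. CALB2 was highest in MAD in NC (2.05 against 0.96 TPM in GOM) and in GOM in WG and WL. The part of these markers in the HOXA2 values was not tested.

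The genes between these ends differed little between depots. HOXA5 had the highest levels of the 7, with medians of 14.7, 19.9, 23 and 13.9 TPM in GOM, MAD, RAD and ULB of NC, 12.4, 14.9, 18.2 and 9.93 TPM in WG, and 13.5, 15.5, 19.5 and 11.3 TPM in WL. It was called in 1 of 18 comparisons, RAD over GOM in NC (log2 0.78, edgeR adjusted p = 0.0272), and the ranges overlapped. Over all PCGs, 10.7 to 12.5% of pairs were called in a diet. The call was lost with only libraries of at least 88% of TPM on PCGs (0.50), which leaves out 7 of 9 NC GOM libraries. HOXA5 had its highest median in RAD in each diet and its lowest in ULB. HOXA7 had medians of 4.76 to 13.6 TPM over the 12 groups and HOXA3 of 1.26 to 5.63 TPM, and neither was called between any 2 depots. The log2 differences between depots ran from -0.28 to 0.47 for HOXA7 and from -0.67 to 0.18 for HOXA3.

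**Figure D2:**
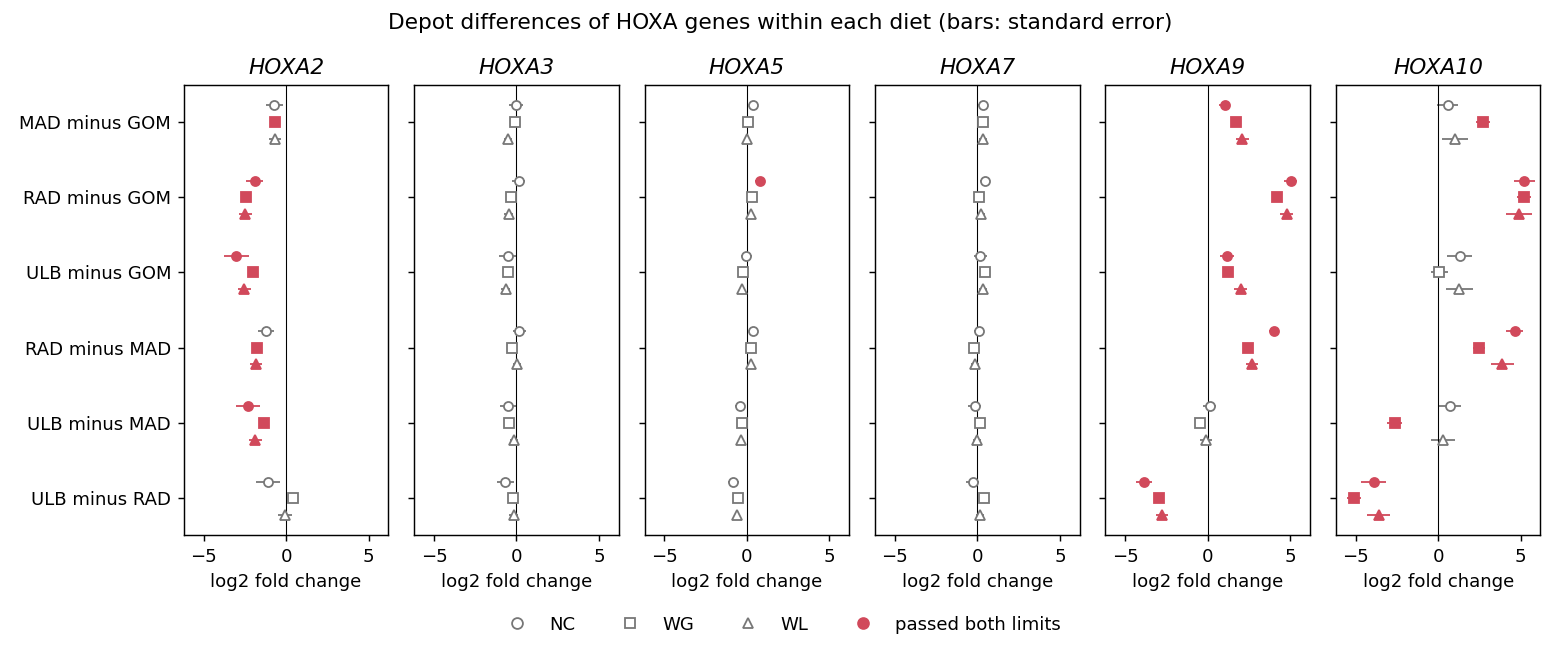
Log2 fold changes between depots for 6 HOXA genes, with NC as circles, WG as squares and WL as triangles, bars for the standard error, and filled red points for comparisons that passed both limits (edgeR adjusted p below 0.05 and fold above 1.5). HOXA9 and HOXA10 differ most where RAD is compared, up to log2 5.21, HOXA2 is lower in RAD and ULB than in GOM, and HOXA3 and HOXA7 have no filled point. HOXA10 entered the fits only through RAD, and HOXA2 in WG and WL only through GOM and MAD, so these filled points are a description.

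In all, of the 42 pairs of gene and depot comparison in each diet 36 were tested, and the calls were 12 for NC, 15 for WG and 12 for WL. Over all PCGs tested, 12.5% of such pairs were called for NC, 11% for WG and 10.7% for WL. The median absolute log2 difference was 0.69, 0.48 and 0.49 over the members and 0.29, 0.17 and 0.19 over all PCGs tested. HOXA10 entered the tests only through RAD, HOXA2 in WG and WL only through GOM and MAD, and HOXA11 entered none, so these counts are a description. Comparisons within a diet share their libraries and are not independent.

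Genes with a pattern most like that of each member were sought among 15068 PCGs, by Pearson's r of the 12 group means of log2(TPM + 1). HOXA10 was most like ALX1 (r = 0.995), RASSF6 (0.978) and HOXA9 (0.976). ALX1 had 1.6 to 11.4 TPM in RAD over the 3 diets and at most 1.51 TPM in any other library. HOXA9 was most like HOXA10, ALX1 (0.964) and RASSF6 (0.928). HOXA2 was most like WNK2 (0.973), HOXA3 like RAD9B (0.966), HOXA5 like ALG9 (0.912) and HOXA7 like RHBG (0.955). HOXA2 and HOXA9 had an r of -0.57, a description over 12 group means.

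HOX genes outside the 9 also differed between depots. Of 30 listed, 27 had an identifier and 18 or 19 were tested in a diet. Pairs of gene and depot comparison were called 55 times of 114 for NC, 71 of 108 for WG and 68 of 108 for WL, with median absolute log2 differences of 0.90, 0.79 and 0.83. HOXC9, the paralogue of HOXA9 on the HOXC cluster, was higher in RAD than in GOM by log2 5.43, 3.52 and 4.37 in NC, WG and WL. Unlike HOXA9, it was also high in ULB, with differences of ULB from RAD of -0.68, -0.52 and -0.30, none called. HOXD8 was higher than in GOM in RAD (3.35, 2.49 and 2.08) and in ULB (3.69, 3.18 and 2.56). HOXB6 and HOXB8 were lower in ULB than in GOM, by -2.44 and -2.80 in NC. The RAD and ULB differences from GOM of HOXC9, HOXD8 and HOXB6 were called (edgeR). HOXB8 had a mean of 3.15 TPM in NC GOM, but of 0.593 TPM in NC RAD and 0.467 TPM in NC ULB. These lie about the limit on low values, so its difference is a description with no test.

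The cofactors of HOX proteins differed too, with 21, 17 and 16 of 42 pairs called in NC, WG and WL (7 of 9 listed genes had an identifier, and all 7 were tested). MEIS1, whose product binds DNA with HOX proteins of the posterior group, was lower in RAD than in GOM by log2 -1.01, -1.10 and -1.07 and lower in ULB by -2.67, -2.51 and -2.74. PBX4 was lower in RAD than in GOM by -1.57, -1.38 and -1.53. MEIS2 was lower in RAD than in GOM by -1.05, -0.95 and -0.83. PBX3 was lower in ULB than in RAD (-1.02, -0.60 and -0.65) and did not pass between RAD and GOM. Regulators of HOX chromatin, such as the Polycomb subunits EZH2 and CBX8 and the menin gene MEN1, were called in 3 of 90 pairs in NC and 2 of 90 in WG, or 3.3 and 2.2%, below the shares over all PCGs (15 of 16 listed genes had an identifier). EZH2 was lower in MAD than in GOM in NC (-0.84).

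Neighbours of the cluster were called in 14, 5 and 4 of 48 pairs (8 of 9 with an identifier were tested), or 29.2, 10.4 and 8.3%, above the share over all PCGs in NC and at or below it in WG and WL. SKAP2, which encodes an adaptor of immune cells and lies on the HOXA2 side, was lower in RAD than in GOM (log2 -1.33, -1.08 and -1.04) and in ULB than in GOM (-1.70, -1.17 and -1.02). HIBADH, a gene of valine breakdown beyond EVX1 on the HOXA13 side, was higher in MAD, RAD and ULB than in GOM in NC (0.90, 1.17 and 1.05, all called) and was called between no depots in WG or WL.

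Marker genes of other cell types were read against the same shares over all PCGs, 12.5, 11 and 10.7%. Called pairs in NC, WG and WL were 19, 10 and 14 of 36 for adipocytes, 8, 10 and 8 of 18 for mesothelium, 12, 10 and 11 of 36 for progenitors, 2, 1 and 0 of 18 for endothelium (edgeR), 9, 3 and 1 of 24 for macrophages, and 11, 12 and 10 of 24 for smooth muscle. For lymphocytes they were 5 of 18, 13 of 30 and 14 of 30, for the only tested skeletal muscle gene 3, 3 and 1 of 6, and for the only tested pancreas or gut gene 0 and 6 of 6 in NC and WG. The endothelial shares were below those over all PCGs, and so was the macrophage share in WL (4.2%), while those of adipocytes, mesothelium, progenitors and smooth muscle were above them in each diet. No kidney or adrenal marker was expressed highly enough to be tested. Their part in the HOXA values was not tested.

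In RAD, 11 of 18 tested pairs of gene and diet comparison were called, all of them lower than in NC. Over all PCGs tested, 16.9% of pairs were called in RAD. HOXA2 is in the count of the members and entered this fit only through NC, so the count is a description. From NC to WG, HOXA9 fell by log2 1.16 (2.24-fold, standard error 0.129, edgeR adjusted p = 1.97e-10), and the range went from 15.1 to 35.8 TPM down to 6.47 to 20.1 TPM. HOXA3 was 2.50-fold lower, HOXA7 1.94-fold, HOXA5 1.75-fold and HOXA10 1.57-fold lower, all called. In WL, HOXA3 was 3.88-fold lower than in NC, HOXA7 2.08-fold, HOXA9 1.74-fold and HOXA5 1.67-fold lower, all called. HOXA2 was 2.69-fold lower in WG and 2.73-fold lower in WL than in NC. In RAD it passed the limit on low values in NC alone, where it was high, so these folds are a description with no test. HOXA10 in WL (log2 -0.54) had an edgeR adjusted p of 0.0431 and did not reach the fold limit. None of the 6 genes was called between WL and WG in RAD. With only the libraries that had at least 88% of TPM on PCGs, which leaves out 6 of 12 NC RAD libraries, there were 4 calls in place of 11, and with a term for that share there were 6.

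In GOM, HOXA2 was 1.86-fold lower in WG and HOXA3 2.50-fold lower in WL, 2 of 12 pairs, where 21.8% of pairs of all PCGs were called. In MAD, HOXA5 was 1.54-fold lower in WG, and HOXA3 and HOXA7 were 3.50-fold and 1.73-fold lower in WL, 3 of 15 pairs, beside 20.4% over all PCGs. With a term for the share of TPM on PCGs, the calls of HOXA2 in GOM (log2 -0.47) and HOXA7 in MAD (-0.82) were lost. With only libraries of at least 88% on PCGs, the calls of HOXA2 (-1.03) and HOXA3 (-1.70) in GOM were lost. That limit also ended those of HOXA3 (-1.89) and HOXA7 (-0.82) in MAD. HOXA7 in MAD was lost with no filter on low values as well (-0.74). In ULB, 0 of 12 pairs were called with edgeR, where 7.44% of all pairs were called. The share in GOM was thus below that of all PCGs and the share in MAD near it. The median log2 change over the members in GOM, MAD, RAD and ULB was -0.54, -0.60, -0.77 and -0.42, and the median over all PCGs lay between -0.05 and 0.02 in each of the diet comparisons. Whether the diet effects differed between depots was tested by the interaction terms, and no difference between depots was shown for HOXA2, HOXA3, HOXA5 and HOXA7 (edgeR adjusted p from 0.567 to 0.985) or for HOXA9 (0.0543), beside 13.9% called over 15068 PCGs. The term of HOXA10 had an edgeR adjusted p of 0.036, but HOXA10 entered the fit only through RAD, so this is no support for a difference. It had an edgeR adjusted p of 0.345 without WG MAD replicates 27, 39 and 46, of 0.0531 without NC ULB replicate 5 and of 0.0506 without NC ULB replicate 12. The fit without replicate 12 still held 1 call, of another member, so the lack of a difference in the others depends on single libraries.

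The WG libraries were not alike in these genes. After the mean of each depot was removed, the first principal component of WG expression held 39.6% of the variance. Its sign put 73 libraries in a set called A and 85 in a set called B, and for 41 of 45 replicate numbers all libraries were in 1 set. No label names these sets, and the widest gap between neighbouring scores was 7.8% of their range, so the sets are a division of these data by their own expression and not a labelled batch. Differences between them are given without a test. The median share of TPM on PCGs was 95.7% in set A and 92.9% in set B.

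HOXA3 differed most between the sets. Its median in sets A and B was 7.32 and 0.998 TPM in GOM, 5.09 and 0.945 TPM in MAD, 4.74 and 0.698 TPM in RAD, and 4.10 and 0.584 TPM in ULB. The sets did not overlap in GOM (3.34 to 11.2 TPM in A, 0.447 to 3.06 TPM in B) or in MAD (2.29 to 10.6 and 0.417 to 1.36 TPM). The NC medians, 4.60 to 5.63 TPM, were at the level of set A, and the WL medians, 1.26 to 1.80 TPM, lay between the sets. HOXA5 had medians of 22 and 10 TPM in GOM and 25.1 and 9.88 TPM in RAD. HOXA7 had 12.5 and 4.64 TPM in GOM and 14.1 and 6.16 TPM in ULB. HOXA9 in RAD had 15.4 and 8.98 TPM, and HOXA2 in GOM 2.89 and 0.984 TPM, while HOXA10 in RAD was at 4.47 and 4.85 TPM.

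The diet comparisons were repeated with 1 set of WG libraries at a time, alternatives added once these values were known. Since the sets divide the WG libraries by their own expression, the values that follow are descriptions. From NC to WG, HOXA3 in RAD differed by log2 -0.55 with set A alone and by -2.73 with set B alone, HOXA2 in GOM by -0.34 and -1.47, HOXA5 in MAD by -0.24 and -1.26, and HOXA5 in RAD by -0.34 and -1.41. These 4 differences were called with all WG libraries and did not pass with set A alone. HOXA9 in RAD differed by -0.90 and -1.45. From WG to WL, HOXA3 differed by -1.43 with set A and 1.04 with set B in GOM, by -1.60 and 0.83 in MAD, by -1.38 and 0.76 in RAD, and by -1.41 and 1.10 in ULB, signs that the place of the WL medians between those of the sets already gives. The part of the sets in the diet results was not tested. Between depots, HOXA9 in RAD was above GOM by log2 4.21 with set A alone and 4.11 with set B alone, both called. HOXA3, not called between depots with all libraries, was lower in ULB than in GOM within each set (-0.66 in A and -0.71 in B, both called).

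**Figure D3:**
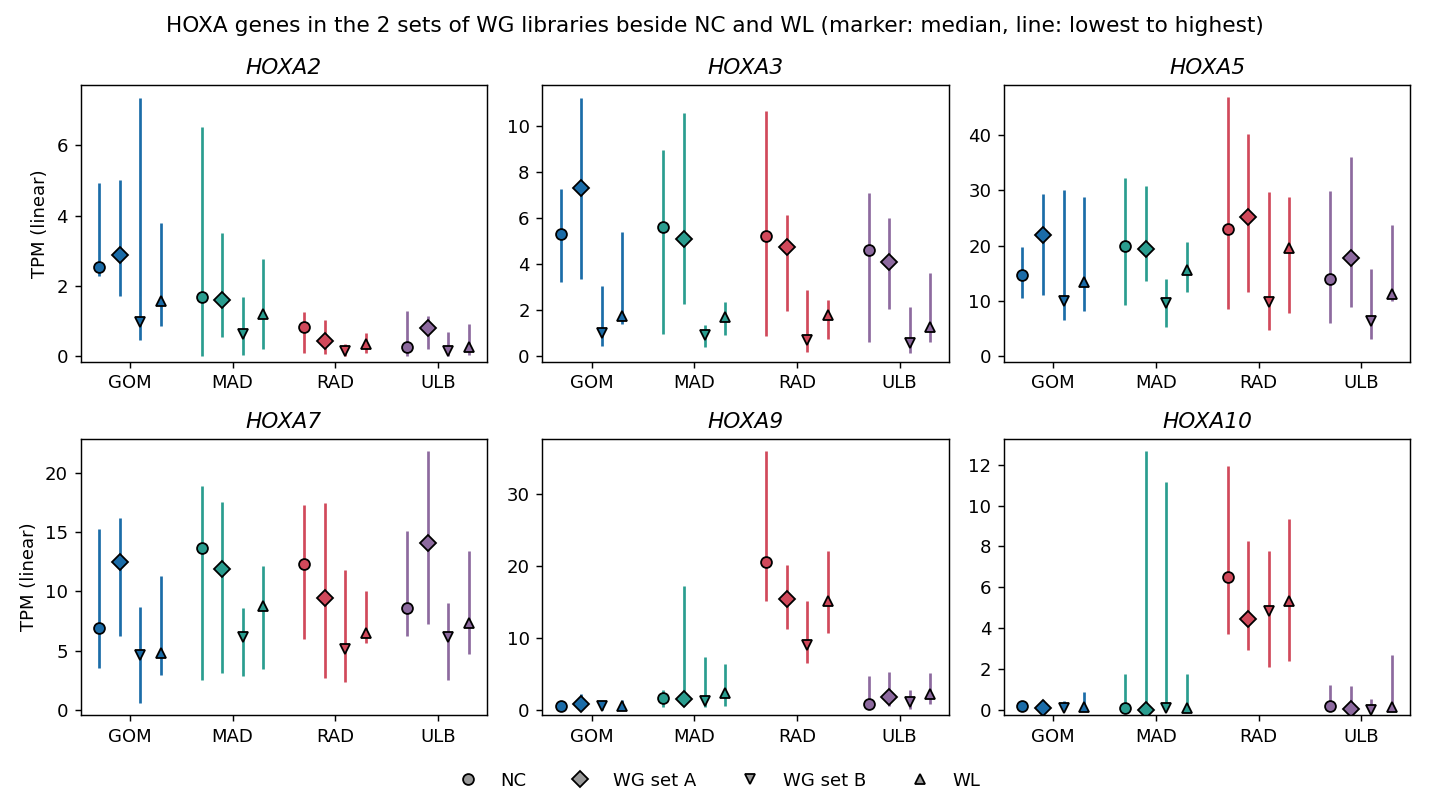
TPM on a linear axis in each depot for 6 HOXA genes, with markers for the median and lines from the lowest to the highest library, for NC, the 2 sets of WG libraries and WL. The sets differ in HOXA3 in every depot (7.32 against 0.998 TPM in GOM) and in HOXA5 and HOXA7, and differ little in HOXA10 of RAD (4.47 against 4.85 TPM).

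In the H3K27ac tables the cluster was marked in all 18, and the posterior edge of the marked stretch lay further out in RAD. Each table lists regions of pooled reads that the authors stitched together, for 1 depot of NC or WL or for 1 of their WG subgroups, and pools 1 to 11 labelled samples. With no replicates there is no test, and peaks lying close to a transcription start were excluded before stitching. The region at the cluster was stitched from 11 loci in NC RAD, 9 in NC ULB, 6 in NC MAD and 3 in NC GOM. The WG and WL regions held 1 locus each, apart from a region of 2 loci in WG ULB subgroup 5. Bases between stitched loci count as marked here. The first marked base was at -0.922 kb from the start of HOXA11 in NC RAD, at 7.48 and 14.7 kb in the WG RAD subgroups 5 and 6 and at 8.48 kb in WL RAD. It was at 15.1 kb in NC ULB. In the 10 tables of GOM and MAD it was at 23.1 to 27.9 kb, past the end of HOXA9.

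The start of HOXA9 was thus inside a marked region in 4 of 4 RAD tables, 0 of 5 GOM tables, 0 of 5 MAD tables and 1 of 4 ULB tables. Some of HOXA10 (0.61 to 100% of its length) was marked in 4 of 4 RAD tables and in 0 of the other 14, and its start in 1, that of NC RAD. HOXA11 was marked in NC RAD alone. HOXA9 and HOXA10 thus lay at least in part inside marked regions in the depot with their highest expression. HOXA9 was also inside one in NC ULB, a table of 3 labelled samples, where its median TPM was 0.806. The regions of NC RAD and NC ULB were stitched from 11 and 9 loci. Whether these genes lie under a peak or between peaks in those 2 tables cannot be told. In the WG RAD and WL RAD tables each region held 1 locus, and whether the mark runs unbroken within a locus was not tested. In WG RAD subgroup 6, a region that ended at 46.9 kb and the next, from 47.7 kb, were left apart. Extents in NC and in the other diets are thus not like for like.

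The starts of HOXA7, HOXA6 and HOXA3 were marked in 5 of 5 GOM, 5 of 5 MAD, 4 of 4 RAD and 3 of 4 ULB tables, and that of HOXA5 in all 18. At the anterior end the mark was less extensive in ULB. The start of HOXA2 was marked in 5 of 5, 5 of 5, 4 of 4 and 1 of 4 tables of GOM, MAD, RAD and ULB, and that of HOXA4 in 5 of 5, 5 of 5, 2 of 4 and 1 of 4. A region at the cluster carried the super-enhancer mark in 5 of 5 GOM, 4 of 5 MAD, 4 of 4 RAD and 1 of 4 ULB tables. In ULB, that mark and the marked starts of HOXA2 and HOXA4 all came from NC ULB, whose region was stitched from 9 loci. Taking the best-ranked region at the cluster in each table, the ranks ran from 64, in the top 0.274% of the list, in WG GOM subgroup 1, to 4881, in the top 24.7%, in WG ULB subgroup 5. Net of input, the signal per base over these regions was 3.87 to 4.40 times that over all regions in the GOM tables, 2.02 to 3.43 times in MAD, 1.59 to 2.64 times in RAD and 1.36 to 2.36 times in ULB.

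**Figure D4:**
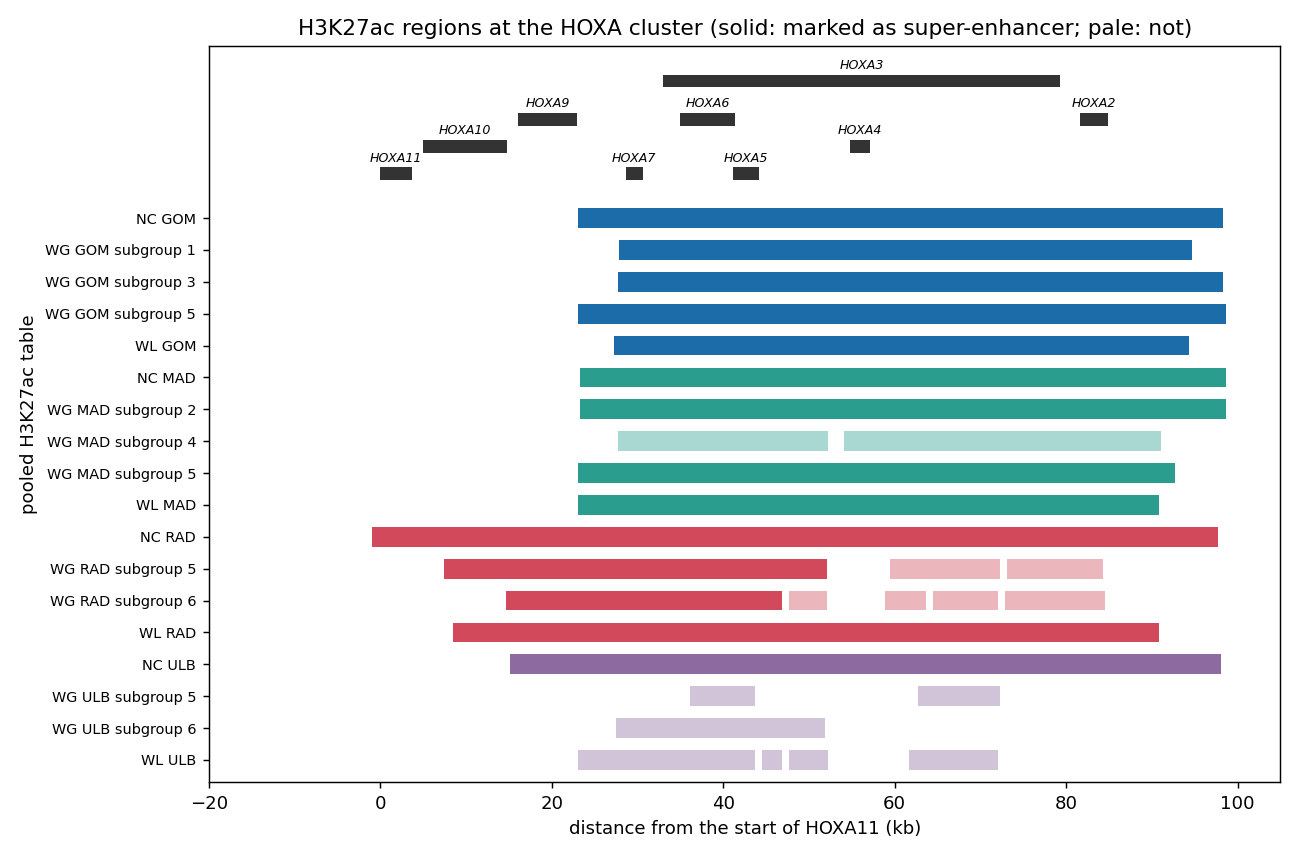
Marked H3K27ac regions in each of the 18 pooled tables, drawn against the distance in kb from the start of HOXA11, with the 9 members above, solid bars for regions marked as super-enhancers and pale bars for the others. The bars of RAD begin at -0.922 to 14.7 kb and cover HOXA9, while those of GOM and MAD begin at 23.1 to 27.9 kb. A bar includes any gaps between stitched loci.

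In Hi-C the whole cluster was in compartment A, the active compartment, in all 240 samples. The A-B index is a score without a unit, given for bins of 20 kb and positive in compartment A, and the members span 5 bins from 45380001 to 45480000. All 5 were positive in every sample, where 42.9 to 51.0% of all autosomal bins were positive in a sample. The mean over the 5 bins was 2.81 ± 0.440 (SD, n = 9) in NC GOM, 2.87 ± 0.141 (n = 12) in NC MAD, 2.75 ± 0.229 (n = 12) in NC RAD and 2.24 ± 0.235 (n = 5) in NC ULB. It was 2.73, 2.80, 2.52 and 2.24 in WG, and 2.95, 3.05, 2.87 and 2.24 in WL. The bin with the starts of HOXA9 and HOXA7 had a mean of 2.85 ± 0.345 in NC RAD and 2.67 ± 0.458 in NC GOM, a difference that did not pass the limits. The index of RAD did not stand apart as the expression of HOXA9 and HOXA10 did. The 2 were not measured in the same material, since Hi-C used the layer with adipocytes and RNA-seq whole tissue.

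ULB had the lowest index. In all 45 comparisons of a bin between ULB and another depot, the value in ULB was lower, by 0.07 to 1.09. With limma over 113298 bins, 34 of the 45 had an adjusted p below 0.05, and 10 were called with a difference above 0.75 as well. The comparisons share samples and are not independent. No share over all bins is given for the adjusted p alone, or for pairs with ULB apart from the other pairs. These counts out of 45, and those below for the other depots, are thus a description. The bin from 45440001, with the start of HOXA4, was called in NC against GOM (-1.06 ± 0.236, standard error), MAD (-1.09 ± 0.225) and RAD (-0.87 ± 0.226), and in WG against GOM (-0.84 ± 0.0980). In WL, the bin with the starts of HOXA11 and HOXA10 and the bin with that of HOXA2 were called against all 3 other depots (-1.05 to -0.77). Between the other depots, 0 of 45 were called with limma, and 7 had an adjusted p below 0.05. Of 30 pairs of bin and comparison per diet, 3 were called for NC, 1 for WG and 6 for WL, beside 13.8%, 10.3% and 10.7% over all bins. The calls were thus below the share over all bins in NC and WG and above it in WL. Without NC ULB replicate 7, the difference of ULB from RAD in NC was -0.67 and no longer called.

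Diet did not change the index of the cluster past the limits in any depot. Of 15 pairs of bin and comparison in each depot, 0 were called with limma, beside 5.36%, 5.59%, 8.01% and 10.4% over all bins for GOM, MAD, RAD and ULB. An adjusted p below 0.05 without the limit on size was reached by 2, 1, 5 and 0 of the 15, a description with no share over all bins. The interaction of diet and depot was called for 0 of the 5 bins, with a lowest adjusted p of 0.0996, where 22.3% of all bins were called.

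**Figure D5:**
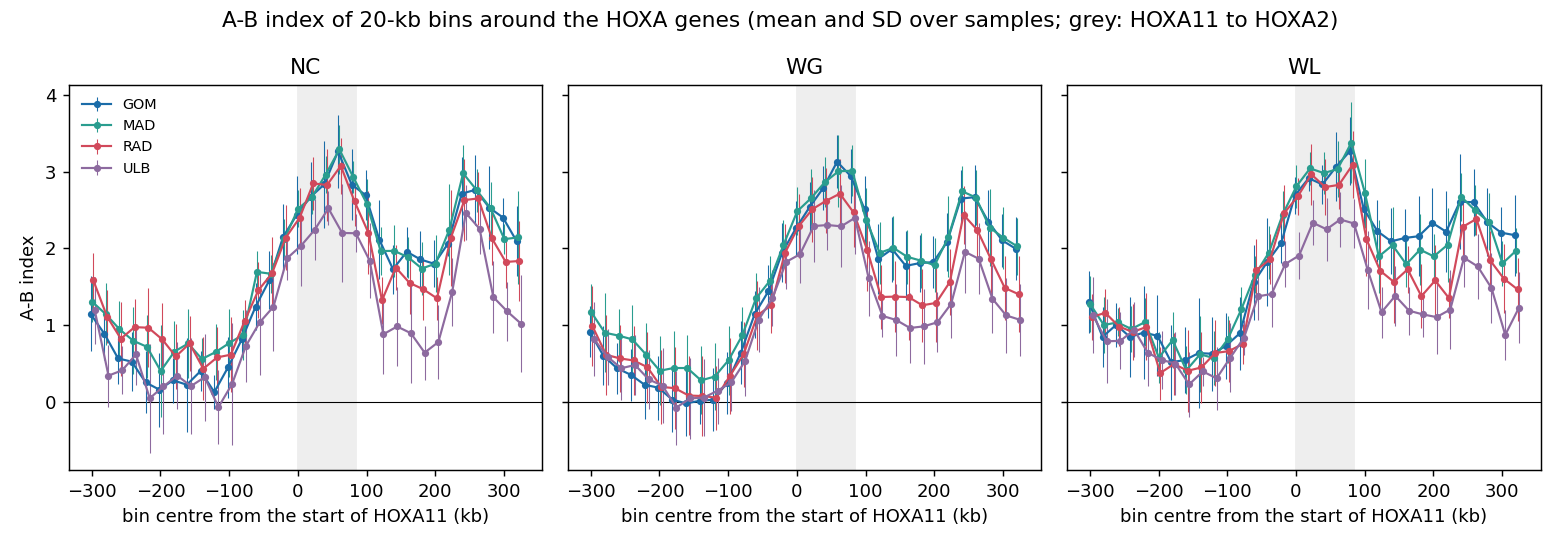
Mean A-B index (no unit) of 20-kb bins around the cluster with bars for the SD over samples, by the distance of the bin centre from the start of HOXA11 in kb, for the 4 depots in NC, WG and WL, with the span of the members in grey. The index is positive over the whole span in each depot and lowest in ULB, with a mean over the 5 bins of 2.24 in each diet.

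Topologically associating domains (TADs), stretches within which contacts are more frequent, also met at the cluster. An edge of a TAD fell inside the span of the members in 8 of 9, 11 of 12, 11 of 12 and 5 of 5 samples of NC GOM, MAD, RAD and ULB, in 44 of 46, 37 of 37, 35 of 40 and 38 of 39 samples of WG, and in 10 of 10, 10 of 10, 9 of 10 and 9 of 10 samples of WL. A permutation test of the depot labels on the chi-square statistic (upper tail) gave an adjusted p of 1 for NC, 0.202 for WG and 1 for WL. On the 20-kb grid of the calls, the edge lay at 45400000, between the starts of HOXA10 and HOXA9, or at 45420000, between HOXA7 and HOXA3. An edge at 45440000 was found in 1 sample each of NC GOM, WG ULB and WL RAD. In WG the edge was at 45400000 and at 45420000 in 18 and 26 of 46 samples of GOM, 20 and 17 of 37 of MAD, 26 and 9 of 40 of RAD, and 28 and 9 of 39 of ULB. In WL these counts were 7 and 3 in GOM, 6 and 4 in MAD, 3 and 5 in RAD, and 6 and 3 in ULB, of 10 each. In NC they were 2 and 5 of 9, 4 and 7 of 12, 5 and 6 of 12, and 3 and 2 of 5. RAD had the first position more often than GOM in WG and less often in WL, and these differences were not tested.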

How the data were processed

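RNA-seq, Hi-C and H3K27ac ChIP-seq of 4 adipose depots under 3 diets were used. For RNA-seq the authors quantified stranded, rRNA-depleted libraries with kallisto 0.43.0 on Ensembl transcripts and deposited estimated counts and TPM per gene. The deposited A-B index is a score per 20-kb bin of 18 autosomes, made by the authors from matrices normalized between samples, which can shrink differences between samples. The deposited TAD positions and the ranks and super-enhancer marks of H3K27ac regions are of the kind called other here. The deposited H3K27ac signal is coverage over stitched regions of pooled reads and of input, aligned by the authors with BWA 0.7.15 and SAMtools 1.3.1 and called with SICER. In stitching, the authors excluded peaks within 2000 bases of a transcription start, so a start lies inside a region only through longer or stitched peaks. Gene lengths and starts came from RefSeq on Sscrofa11.1, the build of the files.

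Identifiers were paired with symbols through a gene name table (14821 of 21280 PCGs had a symbol). Estimated counts were rounded and tested with edgeR 4.0.16 (TMM, quasi-likelihood) on PCGs over 0.5 TPM in 80% or more of a group's libraries, within each diet or depot, and in 1 model of diet by depot for the interaction. The index was tested with limma 3.58.1. Calls needed an adjusted p below 0.05 and a fold above 1.5, or an index difference above 0.75. TAD edges were tested with 100000 permutations, and the p-values of the 3 diets were adjusted together. H3K27ac had no replicates and no test. Likeness used log2(TPM + 1). Groups and replicates were taken from the labels. Counts per library ran from 3337098 to 22939420, and rare genes such as HOXA10 outside RAD rest on few reads. In simulated data of the NC RAD and GOM libraries (14556 genes), edgeR recovered 36% of 2-fold, 100% of 3-fold and 98% of 4-fold changes. DESeq2 1.42.0, other scaling, no filter on low values, a term for the share of TPM on PCGs, only libraries with at least 88% on PCGs, a replicate block and left-out libraries were tried as alternatives. Another 9 columns of every expression table matched no sample and were not used, and tables of noncoding RNAs were not used. The genes described were all 9 members, for each tested member the 3 PCGs most like it, and from each list up to 4 genes called in most depot comparisons, with values given for those that show the differences. HOXC9 was also compared between RAD and ULB after its values were seen. The members, lists and tests were chosen with earlier results of these data known. Some results are not reported here.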

Additional observations from a re-analysis of the deposited data

Results flagged for a closer look

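In WL ULB, the library of replicate 6 had 23.6 TPM of HOXA5 where the next highest of the 10 libraries had 17 TPM, a gap past Dixon's 95% limit. In the bin from 45460001, which holds the start of HOXA2, the WL GOM sample of replicate 9 had an A-B index of 4.32, where the next highest of 10 had 3.55. Such gaps were looked for in 29 groups of TPM values and 30 groups of index values and found in 1 of each, and chance gives about 1 in 20. The diet effect on HOXA10 differed between depots by the interaction term of edgeR (adjusted p = 0.036), but HOXA10 passed the limit on low values only in RAD, and the call was lost without WG MAD replicates 27, 39 and 46 (adjusted p = 0.345).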

How the results depend on the processing

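Of 137 alternatives to 21 counts of calls, 106 left the count within 1.5 times. In the diet comparisons of expression, DESeq2 gave 5 calls in GOM (2 in the report) and 5 in MAD (3), and RLE size factors gave 4 in GOM. With only libraries of at least 88% of TPM on PCGs the calls were 0 in GOM, 1 in MAD, 4 in RAD (11 in the report) and 0 for the interaction (1), and a term for that share gave 6 in RAD. With no filter on low values there was 1 call in ULB (0) and 2 for the interaction. Set A of the WG libraries gave 5 calls in GOM (without that of HOXA2 between WG and NC), 4 in ULB and 0 for the interaction, and set B gave 8 in GOM, 8 in MAD, 7 in ULB and 2 for the interaction. The interaction had 0 calls without WG MAD libraries 27, 39 and 46, and 0 to 1 when 1 NC ULB replicate was left out (0 without replicate 5). Of the values of single genes and bins, 445 kept direction and call, 52 lost the call, and 2 changed sign, both of HOXA10 in WG without those 3 MAD libraries (-0.24 for MAD against GOM, 0.32 for ULB against MAD). For the index, a limit of 0.5 gave 6, 7 and 14 calls between depots in NC, WG and WL (3, 1 and 6 in the report) and 1 between diets in RAD, and no limit on size gave 6, 21 and 14 between depots and 2, 1 and 5 between diets in GOM, MAD and RAD. No share over all bins is given for these looser limits. Counting H3K27ac regions within 10 or 25 kb of the members gave 45 and 57 regions (29 overlapped them). The cause of these changes was not tested.

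Replicate numbers are shared between depots, but the labels do not say that they mark a pig, and not every pair of libraries correlated above 0.1. With a replicate block the calls between depots were 8, 16 and 13 in NC, WG and WL for expression (12, 15 and 12 without it) and 4, 1 and 6 for the index. In NC the block ended 4 calls, of HOXA9 in MAD (log2 0.96) and ULB (0.79) against GOM, of HOXA5 in RAD against GOM (0.62) and of HOXA2 in ULB against MAD (-2.33). Libraries of the same number had median correlations of 0.556 to 0.637 between depots in WG, a hint from the data and not the design.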
